A study of Mus musculus with 37 samples.

Results

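The mitochondrial carriers examined here are the genes of the SLC25 family and the uncoupling proteins. They were taken by name: every gene in the count table whose symbol began with Slc25a and a number, without the carnitine carrier Slc25a20, together with Ucp1, Ucp2 and Ucp3. This gave 48 genes out of the 21450 symbols of the table. Where a gene had several probes, the probe with the highest total count stood for it, which was needed for 15 of the 48 genes. The choice of a gene by its name uses no measured value, but the choice of its probe uses the total count over all mice. The set was chosen with earlier results of these data known.

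The livers came from adult F0 mice of the outbred CD1 stock, labelled wild type and used in a reproduction and developmental toxicity study. Mice received deionized water (0 mg/kg) or HFPO-DA, a perfluorinated ether acid given as its ammonium salt, at a low (0.1 mg/kg), middle (0.5 mg/kg) or high (5 mg/kg) dose once a day by gavage. Males had 84 to 85 doses, from 70 days before mating to the end of the mating period. Females were older at the first dose and had 53 to 65 doses, from 14 days before mating to lactation day 20 or 21. Sex therefore went with age, the number of doses and reproductive state, and these cannot be told apart. In order of dose the groups held 5, 5, 5 and 4 males and 5, 5, 4 and 4 females, each with its own sex's controls. Each mouse is 1 library made from a scraped section of fixed liver, so a lower value can mean fewer cells of a type or less RNA per cell, which bulk tissue cannot separate.

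The libraries held between 2101495 and 13878254 counts, and 4 of them, all from males, held under 5000000 (1 at 0.1, 1 at 0.5 and 2 at 5 mg/kg). The hepatocyte markers (Alb, Ttr, Apob and others, 8 genes) summed to 9747 to 21029 counts per 1000000 (CPM) in every mouse, so the tissue label held. At 5 mg/kg, 4 of the 8 hepatocyte markers were lowered in males and 3 in females, and their part in the results below was not tested. None of the Kupffer cell, lymphocyte, neutrophil, erythroid, skeletal muscle or stellate cell markers tested was called at 5 mg/kg in either sex by edgeR. Of the 5 endothelial markers, Kdr was lowered in males at that dose and none was called in females.

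The inner membrane of the mitochondrion is closed to most metabolites, and SLC25 proteins carry them across it. They exchange ADP for ATP, bring in phosphate, move citrate, malate and oxoglutarate between mitochondrion and cytosol, and supply amino acids, nucleotides, cofactors and iron to the enzymes of the matrix. In the liver this traffic feeds the urea cycle, gluconeogenesis and lipid synthesis. Uncoupling proteins belong to the same family. Ucp1 lets protons leak through the membrane of brown fat to make heat, while Ucp2 and Ucp3 are linked to fatty acid use and are known targets of the peroxisome proliferator-activated receptors.

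Ucp2 and Ucp3 lie side by side on mouse chromosome 7, in the same orientation, with 6904 bases between the end of Ucp3 (chr7:100472990-100486432, plus strand, GRCm38, GENCODE M21) and the start of Ucp2 (chr7:100493337-100502020). Both were raised at 5 mg/kg, as described below, so the sequence ahead of each is shown. The sequences are from RefSeq (GRCm38.p6, plus strand) and run 5′ to 3′ from 250 to 31 bases before the RefSeq start. They cover chr7:100493108-100493327 for Ucp2 and chr7:100472741-100472960 for Ucp3. Capitals mark AGGTCA, the core motif to which these receptors and other nuclear receptors bind.
Ucp2: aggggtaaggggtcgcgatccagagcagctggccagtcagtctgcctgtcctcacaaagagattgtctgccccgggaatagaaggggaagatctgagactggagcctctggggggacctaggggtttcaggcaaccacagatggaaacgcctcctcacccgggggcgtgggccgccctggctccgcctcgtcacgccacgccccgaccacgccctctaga
Ucp3: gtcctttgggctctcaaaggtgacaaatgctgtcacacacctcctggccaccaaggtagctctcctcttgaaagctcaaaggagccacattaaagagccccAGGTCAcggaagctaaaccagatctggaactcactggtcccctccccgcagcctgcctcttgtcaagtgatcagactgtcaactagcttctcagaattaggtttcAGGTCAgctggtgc
The Ucp3 window held 2 copies of it, beginning 149 and 44 bases before the start, both on the plus strand, and the Ucp2 window held none on either strand. The same letters, searched on both strands, stood in 12.5% of the 32851 RefSeq promoter windows of this length. Of the 37 carrier genes with an entry, 5 held them (Slc25a34, Slc25a39, Slc25a45, Slc25a47 and Ucp3). A match of 6 letters is a description of the sequence and not a binding site.

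Of the 48 genes, 43 had enough counts to be tested. Slc25a18 (a glutamate carrier), Slc25a33 (a pyrimidine nucleotide carrier), Slc25a41 and Slc25a54 (relatives of the ATP-Mg/phosphate carriers) and Ucp1 did not. Each dose group was set against its own sex's controls in edgeR (quasi-likelihood F-test). The p-values of all 18570 probes tested were adjusted by the Benjamini-Hochberg method, and a gene was called raised or lowered at an adjusted p under 0.10. Shares of all genes refer to the 12996 genes whose leading probe was tested, in this edgeR fit. Counts of carriers under other settings or by DESeq2 are given without the share of all genes called there. Whether those counts exceed that share cannot be read from them.

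At 5 mg/kg in males, 8 of the 43 carriers (18.6%) were called, 4 raised and 4 lowered. Of all genes, 13.5% were called in that comparison, 4.65% raised and 8.86% lowered. The raised carriers were Ucp2, Ucp3, Slc25a4 and Slc25a10, and the lowered ones Slc25a13, Slc25a21, Slc25a38 and Slc25a40. With DESeq2's size factors in edgeR, which moved the median log2 fold change of all probes from −0.12 to −0.03, the split was 7 raised and 2 lowered, and DESeq2 itself called 11 carriers, 7 raised and 4 lowered. Without the 4 mice under 5000000 counts, 4 carriers were called, of which Ucp2, Ucp3 and Slc25a4 were shared with the full set of mice and the other was Slc25a23.

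At 5 mg/kg in females, 5 of the 43 carriers (11.6%) were called, against 4.93% of all genes. Ucp2, Ucp3 and Slc25a5 were raised (2.42% of all genes were) and Slc25a15 and Slc25a44 were lowered (2.51% of all genes were). DESeq2 called 6, of which 3 were raised and 3 lowered. The median log2 fold change of the tested carriers was −0.12 in males, where that of all genes was −0.11, and 0.08 in females, where that of all genes was −0.02. With carriers that had a group at 0 set to the bound that 3 counts per library allow, the carriers' medians were −0.11 and 0.07.

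At 0.5 mg/kg, 1 carrier was called in males, Slc25a14, where 0.7% of all genes were called. None was called in females at 0.5 mg/kg by edgeR or by DESeq2, with 4 at an unadjusted p under 0.05 and 0.131% of all genes called. Those 4 were 9.3% of the carriers tested, where 4.77% of all genes were at an unadjusted p under 0.05. At 0.1 mg/kg, 0 carriers were called in males and 0 in females by either tool, with 1 at an unadjusted p under 0.05 in each sex, and 0% of all genes were called in both comparisons. That was 2.33% of the carriers in each sex, where 7.39% of all genes in males and 2.64% in females were at an unadjusted p under 0.05. The single carriers at an unadjusted p under 0.05 at 0.1 mg/kg were Ucp2 in males (log2 fold change −0.59, adjusted p = 0.626 by edgeR) and the peroxisomal cofactor carrier Slc25a17 in females (−0.47, adjusted p = 1).

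**Figure D1:**
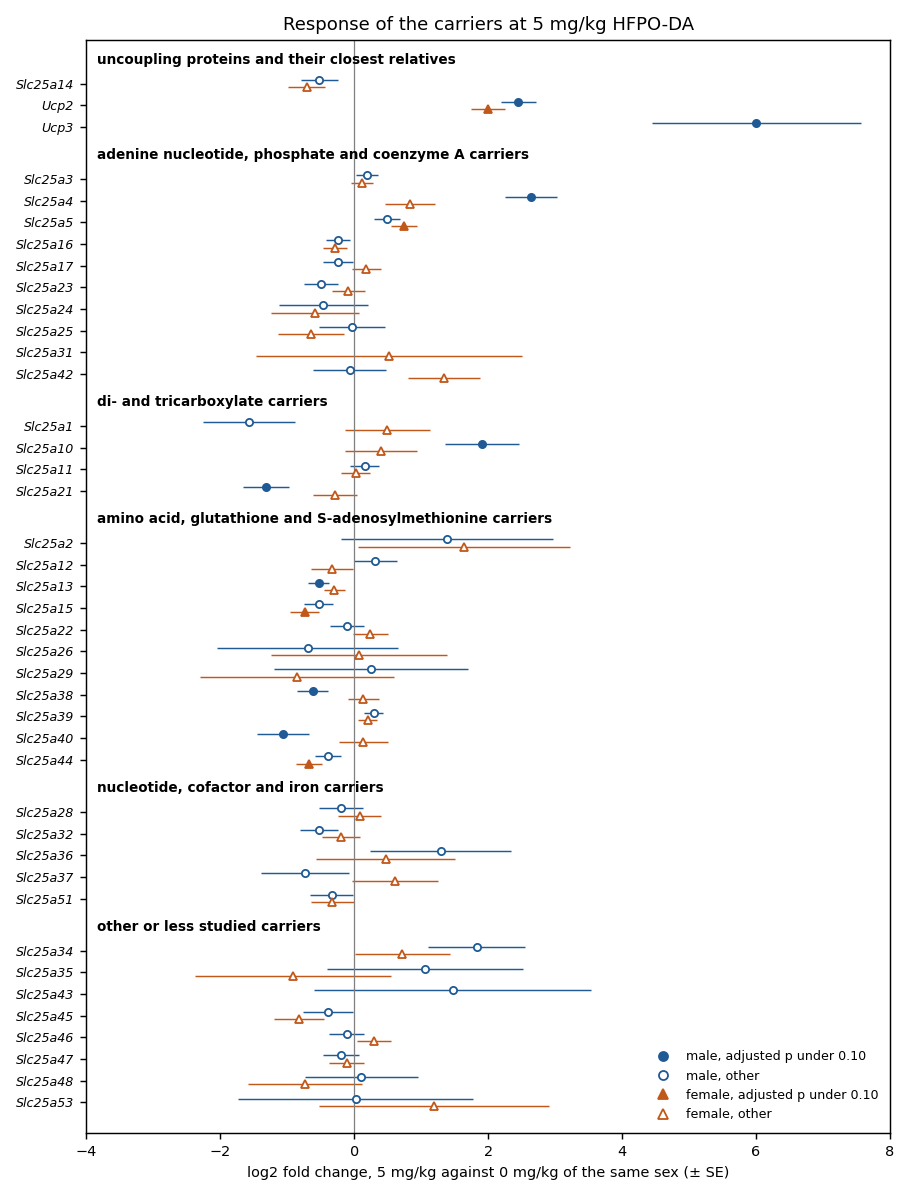
The log2 fold change at 5 mg/kg against 0 mg/kg of the same sex (horizontal axis, bars are SE) is drawn for 41 carriers, grouped by what they carry. Circles are males and triangles females, and filled symbols have an adjusted p under 0.10. A comparison with a group at 0 counts is not drawn, which leaves out Slc25a27 in both sexes, Slc25a31 in males, and Slc25a43 and Ucp3 in females. The filled symbols farthest right are Ucp3 in males (6.00, against controls of which 1 had any count), Slc25a4 in males (2.64) and Ucp2 in both sexes (2.45 and 1.99).

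Ucp2 was raised in both sexes. This widely expressed uncoupling protein exchanges small dicarboxylates for phosphate. It had 27.6, 63.7, 38.5, 25.1 and 51.7 CPM in the 5 male controls and 224, 155, 284 and 243 CPM in the 4 males at 5 mg/kg. The 2 groups did not overlap, and the log2 fold change was 2.45 ± 0.26 (SE), or 5.47-fold (edgeR adjusted p = 3.55e-09).

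In females, Ucp2 had 38.8, 49.5, 39.3, 37.2 and 82.3 CPM in the controls and 174, 255, 186 and 173 CPM at 5 mg/kg. Every treated female was above every control, also above the control at 82.3 CPM. The log2 fold change was 1.99 ± 0.25 (SE), or 3.98-fold (edgeR adjusted p = 4.13e-07).

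Ucp2 was not called at the lower doses, where it had 27.5 ± 5.24 (SD, n = 5) CPM at 0.1 and 47.3 ± 11.1 (SD, n = 5) CPM at 0.5 mg/kg in males, and 37.5 ± 9.35 (SD, n = 5) and 50.1 ± 12.5 (SD, n = 4) CPM in females. The call at 5 mg/kg held under all 10 alternative settings and without any single mouse in both sexes. Ucp2 is also a gene of macrophages, and the summed Kupffer cell and macrophage markers (8 genes) ranged from 73.5 to 307 CPM in male controls and from 92.8 to 282 CPM in males at 5 mg/kg. In females the sums ranged from 157 to 314 CPM in controls and from 155 to 372 CPM at 5 mg/kg. The ranges overlapped in both sexes, and the part of these cells in the Ucp2 result was not tested.

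Ucp3, the uncoupling protein of skeletal muscle and brown fat, had almost no counts in liver except at 5 mg/kg. In males it had 6.37, 11.5, 7.88 and 11.3 CPM at 5 mg/kg, from 27, 104, 21 and 73 counts. Of the 15 other males, 2 had any count: a control with 5 counts (0.649 CPM) and a mouse at 0.1 mg/kg with 1 count (0.148 CPM). The treated males were all above the controls (edgeR adjusted p = 0.0142). The fitted log2 fold change of 6.00 ± 1.56 (SE) rested on the control with 5 counts: it was 9.36 without that mouse, where all controls were at 0, and from 5.68 to 6.12 without any other mouse of the 2 groups. The call held in each case.

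In females Ucp3 had 1.05, 3.10, 5.79 and 1.53 CPM at 5 mg/kg, from 9, 34, 66 and 18 counts, and 0 counts in each of the 14 other females. With the controls set at 3 counts per library, the mean at 5 mg/kg was at least 9.91-fold higher (edgeR adjusted p = 0.00586). DESeq2 gave no adjusted p for this comparison in females.

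Ucp3 passed the filter on low counts through the groups at 5 mg/kg, where it was high, but it was also called with no filter (adjusted p = 0.0202 in males and 0.00585 in females, by edgeR). With a minimum mean of 10 counts over all mice it was not tested. None of the 5 skeletal muscle markers was called. Their sums ranged from 2.21 to 19.1 CPM in males at 5 mg/kg and from 7.09 to 47.9 CPM in male controls. In females they ranged from 6.77 to 48.6 CPM at 5 mg/kg and from 5.41 to 42.2 CPM in controls. The part of muscle in the Ucp3 result was not tested.

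Ucp1, the thermogenic member, had counts in 1 mouse of 37 only, a male at 0.1 mg/kg with 8 counts (1.91 CPM) and one of the 4 shallow libraries. A count of 0 allows up to 3 counts in a library. The adipocyte markers (5 genes) summed to 3.24 to 6.18 CPM in males at 5 mg/kg and to at most 0.532 CPM in male controls. The marker called there was Cidea, a lipid droplet protein, while Adipoq had at most 7 counts in any mouse.

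Of the relatives of the uncoupling proteins, Slc25a14 was lowered in males at 0.5 mg/kg. It had 23.8, 30.7, 50.03, 31.5 and 40.1 CPM in the controls and 22.9, 9.43, 15.2, 14.7 and 16.1 CPM at 0.5 mg/kg. The groups did not overlap, though the lowest control and the highest treated mouse were close, and the log2 fold change was −1.16 ± 0.26 (SE; edgeR adjusted p = 0.0253). The less abundant probes of this gene were not called in that comparison. Their log2 fold changes were −0.82 ± 0.54 (SE; edgeR adjusted p = 0.704) and 0.85 ± 1.64 (SE; adjusted p = 0.972), the latter on 269 counts in all mice.

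At 5 mg/kg Slc25a14 was not called, with 24.3 ± 8.54 (SD, n = 4) CPM in males (log2 fold change −0.53, adjusted p = 0.246 by edgeR) and 17.2 ± 4.44 (SD, n = 4) CPM in females against 28.2 ± 7.02 (SD, n = 5) in their controls (−0.71, adjusted p = 0.202). The female difference was called with each sex fitted apart (adjusted p = 0.0397), with summed probes (0.0728) and by DESeq2 (0.0841). The call in males at 0.5 mg/kg was lost when each sex was fitted apart (adjusted p = 0.187), when counts were thinned to the smallest library (0.115) and without male control 3 (0.109). Without male 2 at 5 mg/kg, the highest of the 4, the difference at that dose was called (log2 fold change −0.83, adjusted p = 0.0726). Slc25a27, a brain-type relative, had 110 counts in all mice together, with 0 counts in every male and in the females at 5 mg/kg.

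**Figure D2:**
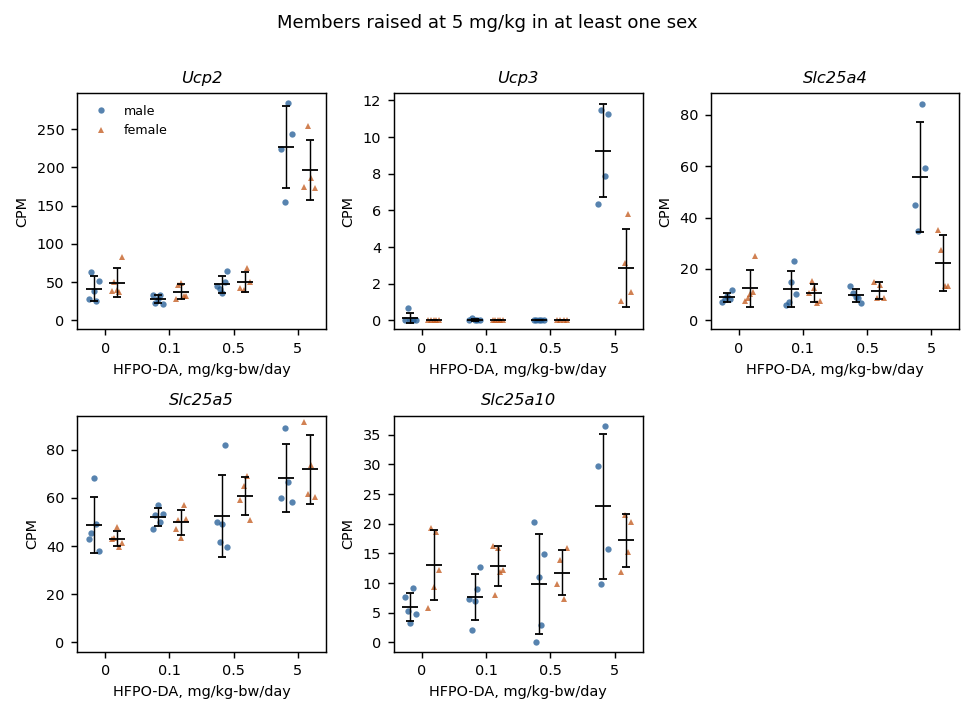
CPM in each mouse (points, circles for males and triangles for females) at each dose, with the mean and SD as a bar and whiskers, for the 5 carriers raised at 5 mg/kg in at least one sex. Ucp2 and Ucp3 at 5 mg/kg lie above the controls in both sexes, Slc25a4 and Slc25a10 do so in males, and Slc25a5 does so in females.

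Of the 12 carriers of adenine nucleotides, phosphate and coenzyme A, 10 were tested. At 5 mg/kg, 1 of the 10 was called in males (Slc25a4) and 1 in females (Slc25a5), against 13.5% and 4.93% of all genes. Both are ADP/ATP translocases, which export the ATP made in the mitochondrion. Slc25a4, the isoform of heart and muscle, was raised in males. It had 7.21, 8.30, 9.36, 8.11 and 11.8 CPM in male controls and 44.8, 34.8, 84.4 and 59.5 CPM at 5 mg/kg. Every treated male was above every control, and the log2 fold change was 2.64 ± 0.39 (SE), or 6.22-fold (edgeR adjusted p = 4.03e-06). This call held under all 10 alternatives and without any single mouse. The second probe of Slc25a4, with 314 counts in all mice, was not called in males at 5 mg/kg, and its groups overlapped. Its log2 fold change was 2.73 ± 1.64 (SE), with an edgeR adjusted p of 0.328.

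In females, Slc25a4 had 7.54, 8.60, 10.1, 11.1 and 25.1 CPM in the controls and 35.1, 27.5, 13.3 and 13.4 CPM at 5 mg/kg. The groups overlapped because of the control at 25.1 CPM, and the log2 fold change of 0.83 ± 0.37 (SE) was not called (edgeR adjusted p = 0.312). Without that control it was (1.25, adjusted p = 0.0572).

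The difference between the male and female responses of Slc25a4 was 1.80 ± 0.53 (SE) on the log2 scale, with an adjusted p of 0.168 by edgeR and 0.0705 by DESeq2. Leaving out each mouse in turn moved the edgeR value between 0.0894, without male 2 at 5 mg/kg, and 0.329. At 0.1 and 0.5 mg/kg the group means were 12.2 and 9.70 CPM in males and 10.5 and 11.5 CPM in females. Muscle markers, given above, overlapped between the groups, and their part in the Slc25a4 result was not tested.

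Slc25a5, the translocase of most other tissues including liver, was raised in females. It had 42.9, 43.3, 48.0, 39.4 and 41.4 CPM in the controls and 91.3, 61.6, 73.7 and 60.5 CPM at 5 mg/kg. The groups did not overlap, and the log2 fold change was 0.74 ± 0.19 (SE; edgeR adjusted p = 0.0183). Without female 1 at 5 mg/kg, the highest, the adjusted p was 0.156.

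At 0.5 mg/kg in females the 4 values of Slc25a5 also lay above the controls, at 59.0, 64.8, 69.0 and 50.7 CPM, but the difference was not called (log2 fold change 0.50, edgeR adjusted p = 1). In males Slc25a5 had 48.7 ± 11.7 (SD, n = 5) CPM in controls and 68.3 ± 14.1 (SD, n = 4) CPM at 5 mg/kg, which gave 0.49 ± 0.20 (SE) on the log2 scale with an adjusted p of 0.115 by edgeR and 0.0281 by DESeq2. The interaction gave no call for it (adjusted p = 0.877 by edgeR). The translocases Slc25a4, Slc25a5 and Slc25a31 are closely similar in sequence, so reads could be shared between their probes and their separate values are uncertain.

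The other 8 tested members of this group were not called at 5 mg/kg in either sex. Slc25a3 supplies phosphate, Slc25a16 and Slc25a42 carry coenzyme A, Slc25a17 is the peroxisomal cofactor carrier, Slc25a23, Slc25a24 and Slc25a25 exchange ATP-Mg for phosphate, and Slc25a31 is the translocase of testis. Leaving out Slc25a31, which had a group at 0 in males, the log2 fold changes of these genes ran from −0.49 (Slc25a23) to 0.19 (Slc25a3) in males and from −0.65 to 1.34 in females. The upper end in females was Slc25a42 (named, like Slc25a1, Slc25a34, Slc25a39 and Slc25a47 below, after its values were seen), with 6.08 ± 3.97 (SD, n = 5) CPM in controls and 15.4 ± 4.66 (SD, n = 4) CPM at 5 mg/kg (edgeR adjusted p = 0.230).

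The 4 carriers of di- and tricarboxylates link the citric acid cycle to the cytosol. At 5 mg/kg in males, 1 was called raised and 1 lowered, where 4.65% and 8.86% of all genes were. In females 0 of the 4 were called, where 4.93% of all genes were. Slc25a10, which exchanges malate and succinate for phosphate, was raised. It had 7.69, 5.32, 3.21, 9.17 and 4.83 CPM in male controls and 29.7, 9.82, 36.4 and 15.8 CPM at 5 mg/kg. The groups did not overlap, with a log2 fold change of 1.91 ± 0.55 (SE; edgeR adjusted p = 0.0227).

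The 2 highest treated males for Slc25a10 were the shallow libraries. Without the mice under 5000000 counts the log2 fold change was 1.03 (adjusted p = 0.258 by edgeR), and with each sex fitted apart the adjusted p was 0.131. In females Slc25a10 had 13.1 ± 5.88 (SD, n = 5) CPM in controls and 17.2 ± 4.46 (SD, n = 4) CPM at 5 mg/kg (log2 fold change 0.40, edgeR adjusted p = 0.991).

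Slc25a21, the carrier of oxoadipate in lysine and tryptophan breakdown, was lowered in males. It had 16.7, 21.7, 20.1, 20.1 and 12.6 CPM in the controls and 3.77, 11.5, 3.0 and 10.04 CPM at 5 mg/kg. Every treated male was below every control, with a log2 fold change of −1.32 ± 0.34 (SE; edgeR adjusted p = 0.00942).

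The 2 lowest treated males for Slc25a21 were again the shallow libraries, and without the mice under 5000000 counts the log2 fold change was −0.80 (edgeR adjusted p = 0.198). At 0.5 mg/kg the mean was 12.3 ± 4.47 (SD, n = 5) CPM in males. In females it was 20.0 ± 3.35 (SD, n = 5) CPM in controls and 16.4 ± 5.10 (SD, n = 4) CPM at 5 mg/kg (edgeR adjusted p = 0.963).

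The citrate carrier Slc25a1, which brings citrate to lipid synthesis, and the oxoglutarate carrier Slc25a11 of the malate-aspartate shuttle were not called. Slc25a1 had 7.74 ± 4.18 (SD, n = 5) CPM in male controls and 2.51 ± 1.97 (SD, n = 4) CPM at 5 mg/kg, with a log2 fold change of −1.57 ± 0.69 (SE; edgeR adjusted p = 0.153). For Slc25a11 the log2 fold change was 0.16 in males, and it was 0.02 in females.

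Of the 12 carriers of amino acids, glutathione and S-adenosylmethionine, 11 were tested, and the calls at 5 mg/kg were of lowered genes, 3 in males, where 8.86% of all genes were lowered and 4.65% raised, and 2 in females, where the shares were 2.51% and 2.42%. Slc25a13 (citrin) is the aspartate-glutamate carrier of liver, which serves both the malate-aspartate shuttle and the urea cycle. It had 1159, 952, 805, 1090 and 911 CPM in male controls and 742, 762, 535 and 685 CPM at 5 mg/kg. The treated males were all below the controls, with a log2 fold change of −0.53 ± 0.16 (SE; edgeR adjusted p = 0.0238).

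The second probe of Slc25a13 gave a log2 fold change of −0.59 ± 0.20 (SE) in males (edgeR adjusted p = 0.0597), also with no overlap. Without the mice under 5000000 counts the value of the leading probe was −0.49 (adjusted p = 0.120 by edgeR), and without male 3 at 5 mg/kg it was −0.43 (0.114). In females Slc25a13 had 1019 ± 145 (SD, n = 5) CPM in controls and 830 ± 159 (SD, n = 4) CPM at 5 mg/kg (log2 fold change −0.30, edgeR adjusted p = 0.455).

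Slc25a15, the ornithine carrier of the urea cycle, was lowered in females. It had 274, 223, 348, 239 and 251 CPM in the controls and 150, 133, 131 and 224 CPM at 5 mg/kg. The fourth treated female fell between the 2 lowest controls, and the log2 fold change was −0.74 ± 0.22 (SE; edgeR adjusted p = 0.0412).

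At 0.5 mg/kg in females Slc25a15 had 197, 195, 184 and 194 CPM, all below the controls, but the difference was not called (log2 fold change −0.47, edgeR adjusted p = 1). The call at 5 mg/kg was lost without female 1, 2 or 3 at 5 mg/kg or without female control 3, with adjusted p-values from 0.120 to 0.193. In males it had 266 ± 33.8 (SD, n = 5) CPM in controls and 184 ± 54.7 (SD, n = 4) CPM at 5 mg/kg (log2 fold change −0.53, edgeR adjusted p = 0.123), and the difference was called without male 2 at 5 mg/kg (−0.76, adjusted p = 0.0306), without male control 1 (0.0962) and in a robust fit (0.0972).

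Slc25a44, which brings branched-chain amino acids into the mitochondrion, was lowered in females. It had 111, 88.8, 112, 135 and 87.2 CPM in the controls and 73.3, 58.0, 60.2 and 76.7 CPM at 5 mg/kg. The groups did not overlap, and the log2 fold change was −0.67 ± 0.19 (SE; edgeR adjusted p = 0.0387). The call was lost without any filter on low counts (adjusted p = 0.104) and without female 2 or 3 at 5 mg/kg or female control 4 (0.148 to 0.165). In males the log2 fold change was −0.39 ± 0.19 (SE; edgeR adjusted p = 0.214).

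Slc25a38 brings in the glycine used for heme synthesis. It had 35.1, 32.3, 47.1, 35.6 and 42.9 CPM in male controls and 19.1, 25.4, 31.9 and 24.4 CPM at 5 mg/kg. The groups did not overlap by a narrow margin, with a log2 fold change of −0.62 ± 0.23 (SE; edgeR adjusted p = 0.0903). This call was lost under 8 of the 10 alternatives, and without male 1, 2 or 4 at 5 mg/kg or male control 3 or 5 (adjusted p from 0.117 to 0.194). In females the controls had 27.2 ± 4.44 (SD, n = 5) and the mice at 5 mg/kg 29.9 ± 5.92 (SD, n = 4) CPM. The second probe of Slc25a38, with 742 counts in all mice, was not called in males at 5 mg/kg (log2 fold change 0.55 ± 1.34, SE; edgeR adjusted p = 0.876).

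The erythroid markers summed to 53.0 to 112 CPM in male controls and to 42.4 to 84.4 CPM in males at 5 mg/kg, overlapping, and their part in the Slc25a38 result was not tested. Alas2, the erythroid enzyme of heme synthesis, reached 104 CPM in a mouse, while Epb42 had 0 counts in all 37 mice.

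Slc25a40, a glutathione carrier, had 14.4, 16.9, 14.4, 11.2 and 18.6 CPM in male controls and 5.19, 13.9, 4.13 and 4.94 CPM at 5 mg/kg. Of the treated males 3 were below every control and 1 was within their range, with a log2 fold change of −1.06 ± 0.38 (SE; edgeR adjusted p = 0.0770). The call was lost under 5 of the 10 alternatives, among them leaving out the mice under 5000000 counts (−0.71, adjusted p = 0.353). It was also lost without male 1, 3 or 4 at 5 mg/kg or male control 2 or 5 (0.106 to 0.194). Without male 2 at 5 mg/kg, the highest of the 4, the log2 fold change was −1.68 (adjusted p = 0.00642). In females Slc25a40 had 12.6 ± 2.89 (SD, n = 5) CPM in controls and 13.9 ± 2.03 (SD, n = 4) CPM at 5 mg/kg.

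Its close relative Slc25a39, the other glutathione carrier, went the opposite way in males on its less abundant probe. That probe was raised (log2 fold change 0.75 ± 0.24, SE; edgeR adjusted p = 0.0385) with no overlap, while the leading probe was not called, with 229 ± 22.6 (SD, n = 5) CPM in controls and 280 ± 43.1 (SD, n = 4) CPM at 5 mg/kg (0.29 ± 0.14, SE; adjusted p = 0.211). The remaining carriers of this group, Slc25a2 (ornithine), Slc25a12 (the aspartate-glutamate carrier of brain and muscle), Slc25a22 (glutamate), Slc25a26 (S-adenosylmethionine) and Slc25a29 (basic amino acids), were not called in either sex. Slc25a2, Slc25a26 and Slc25a29 had 275, 423 and 749 counts in all mice together, which limited their tests.

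**Figure D3:**
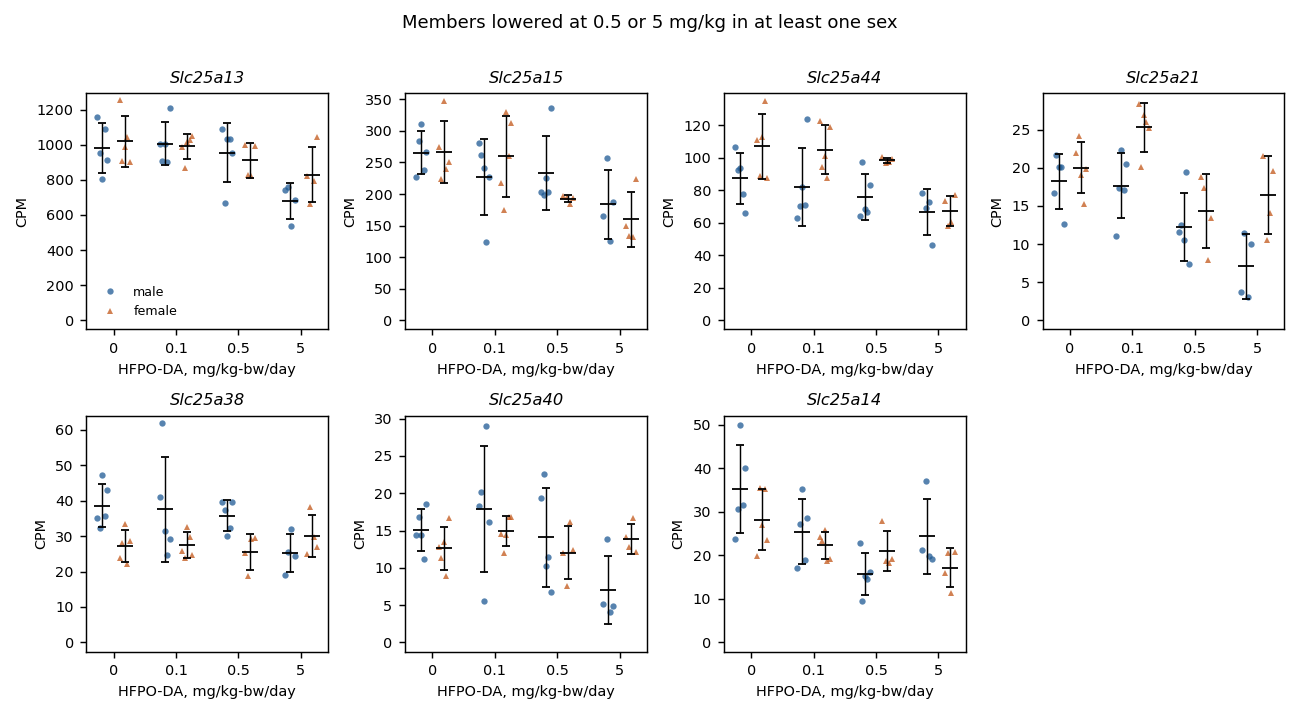
CPM in each mouse (points, circles for males and triangles for females) at each dose, with the mean and SD as a bar and whiskers, for the 7 carriers lowered at 0.5 or 5 mg/kg in at least one sex. Slc25a13, Slc25a21 and Slc25a38 at 5 mg/kg lie below the controls in males, Slc25a44 does so in females, and Slc25a14 is lowest at 0.5 mg/kg in males.

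Among the carriers of nucleotides, cofactors and iron, 5 are described here, and none of these was called at any dose in either sex. They were Slc25a28 and Slc25a37 (the mitoferrins, which import iron), Slc25a32 (folate and FAD), Slc25a36 (pyrimidine nucleotides) and Slc25a51 (NAD). At 5 mg/kg their log2 fold changes (± SE) ran from −0.73 ± 0.66 (Slc25a37) to 1.29 ± 1.06 (Slc25a36) in males. In females they ran from −0.33 ± 0.32 (Slc25a51) to 0.61 ± 0.64 (Slc25a37). Slc25a36 had 846 counts in all mice together, which limited its test.

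None of the 8 other or less studied carriers was called either. In this group Slc25a34, an orphan carrier, had 3.24, 5.19, 3.88, 2.13 and 3.84 CPM in male controls and 23.3, 8.72, 13.1 and 7.11 CPM at 5 mg/kg. All treated males were above all controls, with a log2 fold change of 1.83 ± 0.72 (SE) that missed the threshold (edgeR adjusted p = 0.111) and passed it with DESeq2. The highest treated males, at 23.3 and 13.1 CPM, were the shallow libraries. In females the log2 fold change was 0.72 ± 0.71 (SE; edgeR adjusted p = 0.920).

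The liver-enriched Slc25a47 had 96.2 ± 36.2 (SD, n = 5) and 83.4 ± 20.9 (SD, n = 4) CPM in males at 0 and 5 mg/kg, and 116 ± 28.5 (SD, n = 5) and 107 ± 18.4 (SD, n = 4) CPM in females. Slc25a35, Slc25a43, Slc25a45, Slc25a46 (a protein of the outer membrane), Slc25a48 and Slc25a53 were not called. Counts in all mice together were 94 for Slc25a43, 220 for Slc25a53, 553 for Slc25a35 and 787 for Slc25a48, which limited their tests.

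Outside Ucp2 and Ucp3, 4 further pairs of carrier genes lay within 50000 bases of each other: Slc25a29 and Slc25a47, Slc25a41 and Slc25a23, Slc25a54 and Slc25a24, and Slc25a43 and Slc25a5. Slc25a41 and Slc25a54 were not tested, so a call for both genes could not arise in their pairs. For Slc25a29 with Slc25a47, and for Slc25a43 with Slc25a5, no call was made for both genes at any dose. Slc25a43 had 94 counts in all mice together, which limited its test.

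No carrier differed between the sexes in its response at 5 mg/kg by edgeR, with 5 at an unadjusted p under 0.05 (Slc25a1, Slc25a4, Slc25a21, Slc25a38 and Slc25a40) and 1 called by DESeq2 (Slc25a4). Of all genes, 0.623% differed by edgeR. At an unadjusted p under 0.05 were 11.6% of the carriers and 10.8% of all genes, so the shares were near each other. At 0.5 mg/kg, 1 carrier was at an unadjusted p under 0.05 (Slc25a43), or 2.33% of those tested, against 5.29% of all genes. By either tool 0 carriers differed at that dose, and 0.0154% of all genes differed by edgeR. A call in one sex only is therefore not shown to be particular to it. Between male and female controls, 0 carriers were called by either tool, where edgeR called 2.85% of all genes. At an unadjusted p under 0.05 were 5 carriers (Slc25a10, Slc25a27, Slc25a38, Slc25a43 and Ucp3). These were 11.6% of the carriers tested, near the 12% of all genes at that threshold.

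Carriers reach the inner membrane through the translocases of the outer and inner membranes and their small chaperones, and 13 genes of this import route were tested. At 5 mg/kg Tomm20, a receptor of the outer membrane, was raised in males from 83.6 ± 14.5 (SD, n = 5) to 118 ± 23.2 (SD, n = 4) CPM (log2 fold change 0.49, edgeR adjusted p = 0.0753). In females Timm8b, a chaperone of the intermembrane space, was raised from 125 ± 16.8 (SD, n = 5) to 173 ± 13.01 (SD, n = 4) CPM (0.47, adjusted p = 0.0755), and so was the outer membrane pore Tomm40, from 96.7 ± 10.2 (SD, n = 5) to 142 ± 19.6 (SD, n = 4) CPM (0.55, adjusted p = 0.0912). The other 12 genes in males, where 13.5% of all genes were called, and 11 in females, where 4.93% were, were not called, and the list's median log2 fold change was 0.29 and 0.23.

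Among 18 transporters and channels of other families, Micu2, a gatekeeper of the calcium uniporter, was raised in males at 5 mg/kg from 167 ± 35.2 (SD, n = 5) to 304 ± 60.7 (SD, n = 4) CPM (log2 fold change 0.86, edgeR adjusted p = 0.00125). Sfxn2, a sideroflexin, was called lowered in males (adjusted p = 0.0605) on counts of 0, 13, 18, 0 and 0 in the controls and 0 in each treated male, so the groups overlapped at 0. In females Tspo, a cholesterol-binding protein of the outer membrane, was raised from 110 ± 15.6 (SD, n = 5) to 179 ± 19.5 (SD, n = 4) CPM (0.71, adjusted p = 0.0112). The pyruvate carrier genes, the voltage-dependent channels and the rest of the list were not called. For males the list of 18 thus held 1 upward and 1 downward call, where 13.5% of all genes were called. For females it held 1 call, where the share of all genes was 4.93%.

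The citrate and malate-aspartate shuttles, which depend on Slc25a1, Slc25a11 and Slc25a13, also need enzymes on both sides of the membrane. A list of 10 genes was tested, which held enzymes of these shuttles and of the glycerol phosphate shuttle. In males 2 of the 10 were called at 5 mg/kg, and 3 in females, against 13.5% and 4.93% of all genes. Me1, the cytosolic malic enzyme that turns malate into pyruvate with NADPH, was raised at 5 mg/kg in males from 114 ± 45.6 (SD, n = 5) to 560 ± 122 (SD, n = 4) CPM (log2 fold change 2.29, edgeR adjusted p = 1.90e-08). In females it was raised from 73.3 ± 20.2 (SD, n = 5) to 272 ± 53.2 (SD, n = 4) CPM (1.89, adjusted p = 1.36e-06).

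Gpd1, the cytosolic enzyme of the glycerol phosphate shuttle, was raised in males (log2 fold change 0.66, edgeR adjusted p = 0.0464) and in females (0.65, adjusted p = 0.0933). Mdh2, the malate dehydrogenase of the matrix, was raised in females from 18.2 ± 3.71 (SD, n = 5) to 35.4 ± 2.94 (SD, n = 4) CPM (0.96, adjusted p = 0.0316) and had 30.6 ± 6.64 (SD, n = 5) and 29.6 ± 11.95 (SD, n = 4) CPM in males at 0 and 5 mg/kg. Among the genes of these 3 lists edgeR called none at 0.5 mg/kg, where it called 0.7% of all genes in males and 0.131% in females.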

How the data were processed

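Liver RNA of 40 mice was measured by TempO-Seq, in which paired probes are ligated on their target RNA, amplified and sequenced. The authors deposited raw counts per probe for the 37 mice they kept after leaving out libraries of low depth or few probes. The submitters' processing notes name bcl2fastq 2.17.1.14 and Bowtie. The members and gene lists were chosen with earlier results of these data known.

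Counts were fitted with edgeR 4.0.16 in R 4.3.3 (TMM, filterByExpr by the 8 sex and dose groups, 1 quasi-likelihood fit of all 37 mice), and Benjamini-Hochberg adjustment covered all 18570 probes kept. The fit was checked on simulated counts. CPM are counts per 1000000 of the TMM-normalized library. Each mouse is 1 library. Tables were made with Python 3.11.15, pandas 2.3.3 and numpy 2.4.6. Positions are from GENCODE M21 (GRCm38).

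Values per mouse were given for members called in a dose comparison or interaction (at most 14) and for Ucp1, Ucp2 and Ucp3, and others by role. The values of 1 further member are not reported here. Up to 4 called genes were named per pathway list. Alternatives were DESeq2 1.42.0, its size factors in edgeR, no filter, a minimum mean of 10 counts per probe, robust fitting, separate fits by sex, summed probes, thinned counts, a threshold of 0.05, leaving out each mouse and, chosen after seeing the data, leaving out the 4 mice under 5000000 counts.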

Additional observations from a re-analysis of the deposited data

Results flagged for a closer look

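In 11 of 93 groups of 4 or 5 mice tested, 1 mouse stood apart from the rest of its group by Dixon's criterion. Normally distributed values meet it in about 1 of 20 groups, but CPM need not be so distributed, so these rates cannot be compared. Each flagged mouse was the highest of its group. Where the rest of a group is at 0, as for Ucp3 and Ucp1 below, any count meets the criterion. For Ucp2, female control 5 had 82.3 CPM (the others 37.2 to 49.5) and female 2 at 5 mg/kg had 255 CPM (173 to 186). Female control 5 also stood apart for Slc25a4, with 25.1 CPM (7.54 to 11.1). For Ucp3, male control 2 had 0.649 CPM and male 2 at 0.1 mg/kg had 0.148 CPM, where the other mice of each group had 0.

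Male 2 at 5 mg/kg stood apart for Slc25a14, with 37.1 CPM (19.2 to 21.2), and for Slc25a40, with 13.9 CPM (4.13 to 5.19). Slc25a14 had 27.96 CPM in female 1 at 0.5 mg/kg (18.2 to 19.2). At 0.5 mg/kg in males, Slc25a5 had 81.9 CPM in mouse 4 (39.6 to 49.96) and Slc25a15 had 336 CPM in mouse 5 (198 to 226). Ucp1 had 1.91 CPM in male 4 at 0.1 mg/kg and 0 in the rest of the group.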

How the results depend on the processing

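Of 473 values of single carriers under the alternatives, 417 kept their direction and their side of the threshold, 40 lost a call, 14 gained one and 2 changed sign. The sign changed for Slc25a38 in females at 5 mg/kg, from 0.14 to −0.068 with thinned counts, and ran from −0.019 (without female 2 at 5 mg/kg) to 0.21 when each mouse was left out. Ucp2 in both sexes, Slc25a4 in males and Ucp3 kept their calls wherever a value was given.

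In males at 5 mg/kg the count of 8 was 11 with DESeq2 and fell to 5 with each sex fitted apart and to 4 without the 4 mice under 5000000 counts, and was 6 to 9 when each mouse was left out. In females at 5 mg/kg the count of 5 was 6 with DESeq2, 8 with each sex fitted apart (Slc25a14, Slc25a42 and Slc25a45 were added) and 3 to 6 when each mouse was left out. In males at 0.5 mg/kg the count of 1 was 0 with each sex fitted apart and with thinned counts, and 0 to 1 when each mouse was left out. The interaction at 5 mg/kg was 1 with DESeq2 and 0 to 1 when each mouse was left out. The cause was not tested. The other comparisons had 0 calls in all settings. No paired analysis was possible because the labels give no replicate numbers shared between groups. Low counts limited 5 untested carriers and Slc25a27, Slc25a31 and Slc25a43. They also limited the tests of other carriers, among them Slc25a2, Slc25a26, Slc25a29, Slc25a35, Slc25a36, Slc25a48 and Slc25a53. Each of these had from 220 (Slc25a53) to 846 counts (Slc25a36) in all mice together.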
